A study of Homo sapiens with 12 samples.

Results

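The 9 genes described here carry the type I interferon signal from the cell surface to the nucleus: the receptor subunits IFNAR1 and IFNAR2, the receptor-bound kinases JAK1 and TYK2, the transcription factors STAT2 and IRF9, the related factor IRF1, and the feedback inhibitors SOCS1 and USP18. They were chosen by name for their place in the pathway, with earlier results of these data known. All 9 were found among the 26485 genes of the deposited tables. RNA was measured in HEK293T cells, a human embryonic kidney line immortalized with adenoviral genes and carrying the SV40 large T antigen. The cells were transfected with polyethylenimine and a plasmid of the PX330-GFP type. The 4 groups, of 3 libraries each, were Luciferase sgRNA with Cas9, Luciferase sgRNA without Cas9, 6T sgRNA with Cas9 and 6T sgRNA without Cas9. Every group thus received plasmid DNA and transfection reagent, and no group was left untransfected. The labels do not say what the 6T sgRNA targets.

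The deposited tables, 1 for each sgRNA, give the mean normalized count of every gene in 2 conditions headed A and B. Neither header tells whether A or B was the condition with Cas9, and the order could differ between the tables. Each difference is the value in B relative to the value in A and says nothing of the sign of a Cas9 effect. Whole reads of each library were worked out from the deposited means. They are given as normalized reads, which are reads divided by the library's size factor, and the names B1 to B3 and A1 to A3 follow the size of that factor.

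Type I interferons bind a receptor made of IFNAR1 and IFNAR2. JAK1, held by IFNAR2, and TYK2, held by IFNAR1, then phosphorylate STAT proteins. Phosphorylated STAT2 with its STAT partner and IRF9 forms the complex ISGF3, which binds interferon-stimulated response elements in the promoters of its target genes. IRF1 binds related elements and is itself induced by interferons, while SOCS1 inhibits the kinases and USP18 blocks signalling at IFNAR2.

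The promoter of IRF9 is shown because IRF9 varied most of the 9 genes, and the 2 windows under it because they hold the other matches to interferon-response motifs. All are from RefSeq on GRCh38.p14 and run 5′ to 3′ on the gene's strand, with each motif match in capitals. The IRF9 stretch, at chr14:24161015-24161264 on the plus strand, covers the 250 bases before the RefSeq transcript start, and GENCODE places the start of the gene within it. The IRF1 window lies at chr5:132490878-132490907 and the SOCS1 window at chr16:11256298-11256327, both on the minus strand.
IRF9: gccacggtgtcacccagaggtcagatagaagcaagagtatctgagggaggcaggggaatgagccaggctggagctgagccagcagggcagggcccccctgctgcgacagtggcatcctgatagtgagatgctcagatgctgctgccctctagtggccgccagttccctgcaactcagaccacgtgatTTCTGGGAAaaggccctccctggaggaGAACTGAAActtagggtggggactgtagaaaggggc
IRF1: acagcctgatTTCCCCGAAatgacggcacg
SOCS1: cgccaccgcgGAAAGAGAAAccaaaagtgg

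Patterns of letters, 3 in all, were searched on both strands, from 250 bases before to 50 bases after each start. They were the core of the interferon-stimulated response element (GAAA, any 2 bases, GAAA), its form with 1 base less, GAANNGAAA, and the gamma-activated site TTCNNNGAA, to which STAT dimers bind. The core occurred in 3.57% of 35116 RefSeq promoter windows, GAANNGAAA in 7.66% and TTCNNNGAA in 7.66%. IRF9 held TTCTGGGAA at position -63 and GAACTGAAA at position -36 from its start, with no overlap between them. IRF1 held TTCCCCGAA at position -124, and SOCS1 held GAAAGAGAAA at position -113. RefSeq windows were matched for 7 of the 9 genes, 10 windows in all, and none of the 3 patterns was present in those of IFNAR1, JAK1, TYK2 and STAT2. No window was matched for IFNAR2 or USP18. A match describes the letters only, and binding was not measured.

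Libraries held from 5892029 to 8294722 reads assigned to genes in 3 of the groups, while the 3 Luciferase B libraries held 19310260 to 38359373. All 9 genes were recovered in all 12 libraries, with 3 reads (SOCS1 in 6T B2) to 4547 reads (TYK2 in Luciferase B3) per gene and library. Of 9 genes listed as markers of HEK293 cells, 8 reached a mean of 10 normalized reads, and DLK1 was at 0. The leukocyte marker PTPRC was near 0. Across 12826 genes, the Spearman correlation of a library's deviation from the mean of all libraries with transcript GC content lay between -0.58 and 0.59 in Luciferase B, between 0.31 and 0.74 in Luciferase A, between -0.42 and 0.13 in 6T B and between -0.64 and -0.03 in 6T A. Luciferase A1 had the highest of these values. Libraries of 1 group thus differed in how GC content moved with read number, which bears on the values of GC-poor and GC-rich genes below.

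Per kilobase of exon, and averaged over the 4 deposited means, the kinases were the most abundant of the 9, and IRF9, IRF1 and SOCS1 the least. TYK2 had 187 normalized reads per kilobase, JAK1 149 and USP18 121. IFNAR1 followed with 70.4, STAT2 with 69.4 and IFNAR2 with 64.6. IRF9 had 23.7 normalized reads per kilobase, IRF1 17.3 and SOCS1 6.65. From the highest to the lowest of its 4 means, IRF9 spanned a factor of 2.17, while the other 8 genes spanned factors of 1.11 (IRF1) to 1.37 (SOCS1).

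**Figure D1:**
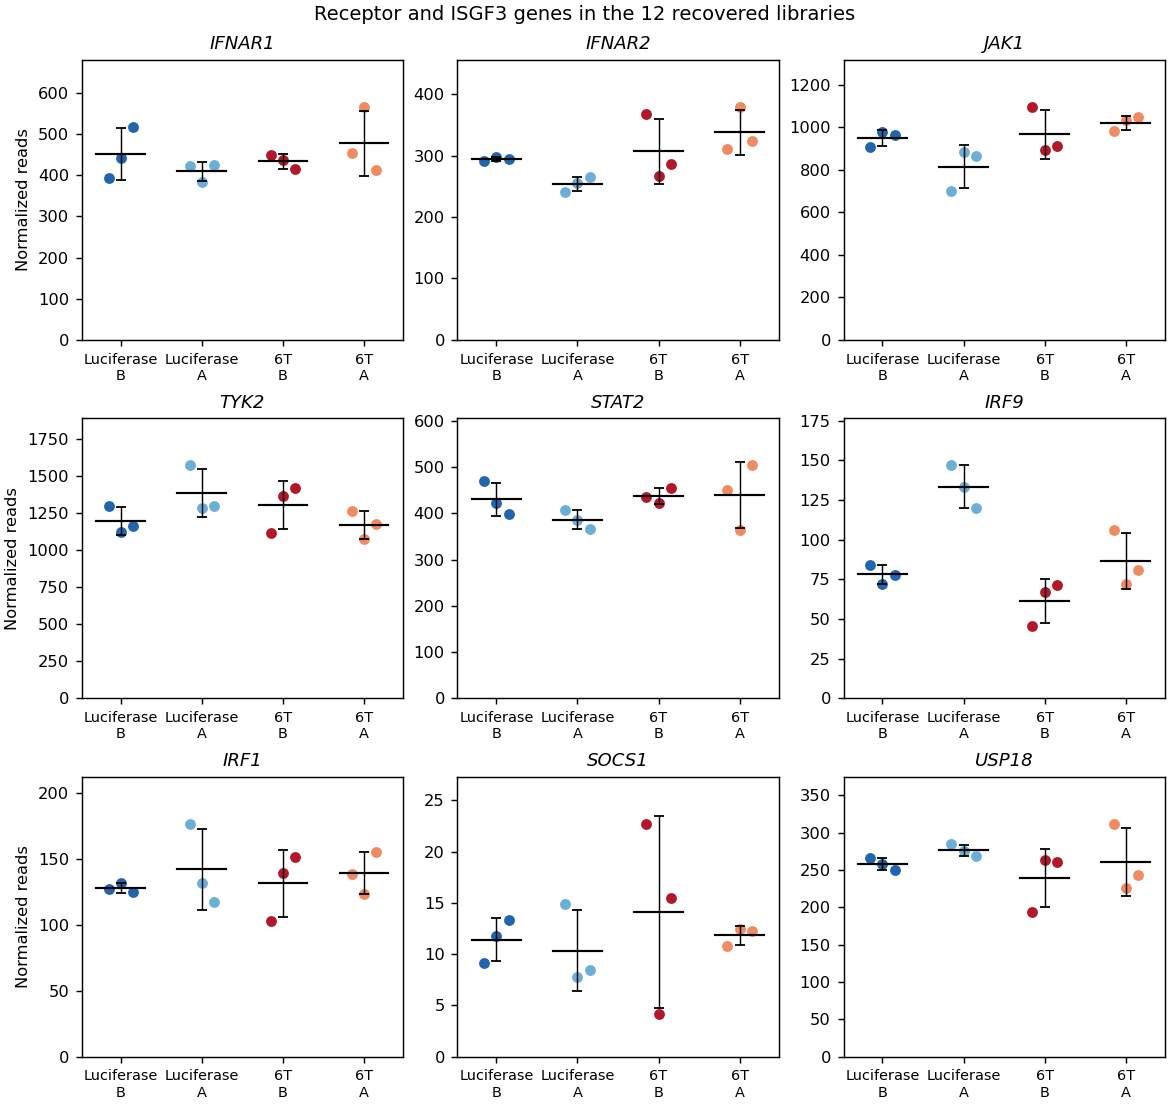
Normalized reads (vertical axes, from 0) of the 9 genes in each of the 12 recovered libraries, with Luciferase B, Luciferase A, 6T B and 6T A from left to right. Points are libraries, long bars the mean and whiskers the SD of 3 libraries. IRF9 stands lower in condition B than in condition A under both sgRNAs, while the other genes differ by less or overlap.

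IFNAR1, the subunit that holds TYK2, lies at chr21:33324477-33359862 on the plus strand. It had 394, 442 and 518 normalized reads in Luciferase B, against 423, 384 and 424 in Luciferase A. Under the 6T sgRNA it had 450, 437 and 414 in condition B, against 454, 567 and 414 in condition A. The conditions overlapped under both sgRNAs. The authors' deposited table gave a log2 fold change of 0.14 (p = 0.445) under the Luciferase sgRNA and of -0.14 (p = 0.373) under the 6T sgRNA. In limma the Luciferase value was 0.025 without Luciferase B3, 0.22 without Luciferase B1 and 0.082 without Luciferase A2.

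IFNAR2, the subunit that holds JAK1 and that USP18 binds, lies at chr21:33229901-33265675 on the plus strand. It had 291, 297 and 295 normalized reads in Luciferase B, against 241, 255 and 264 in Luciferase A. Under the 6T sgRNA it had 367, 267 and 287 in condition B, against 311, 379 and 323 in condition A. Under the Luciferase sgRNA each condition B library was above each condition A library, while under the 6T sgRNA the conditions overlapped. The log2 fold change was 0.22 under the Luciferase sgRNA (p = 0.320) and -0.14 under the 6T sgRNA (p = 0.366), in the authors' deposited table. Of the exon bases of IFNAR2, 44.2% are shared with a read-through gene on the same strand and 39.1% with an antisense gene. Neither of these genes is listed by its name among the genes of the deposited tables. The counts of IFNAR2 are uncertain where the counting could not separate the genes.

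JAK1, at chr1:64833229-64966504 on the minus strand, is the kinase that also serves many other cytokine receptors. It had 909, 980 and 965 normalized reads in Luciferase B, against 699, 881 and 864 in Luciferase A. Under the 6T sgRNA it had 1097, 892 and 910 in condition B, against 984, 1032 and 1048 in condition A. All Luciferase B libraries lay above all Luciferase A libraries, and the 6T conditions overlapped. The authors' deposited table gave log2 fold changes of 0.22 under the Luciferase sgRNA (p = 0.256) and -0.08 under the 6T sgRNA (p = 0.545). Without Luciferase A1, the lowest library, the log2 difference under the Luciferase sgRNA was 0.12.

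TYK2, the kinase first found through its part in the response to interferon alpha, lies at chr19:10350529-10380676 on the minus strand. It had 1302, 1121 and 1163 normalized reads in Luciferase B, against 1576, 1288 and 1302 in Luciferase A. Under the 6T sgRNA it had 1119, 1367 and 1424 in condition B, against 1268, 1078 and 1177 in condition A. The conditions overlapped under both sgRNAs, under the Luciferase sgRNA only because Luciferase B1 lay above Luciferase A2. In the authors' deposited table the log2 fold change was -0.22 under the Luciferase sgRNA (p = 0.256) and 0.15 under the 6T sgRNA (p = 0.262). Without Luciferase A1, here the highest library, the Luciferase value was -0.12.

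STAT2, at chr12:56341597-56360155 on the minus strand, gives ISGF3 its transactivation domain. It had 470, 422 and 400 normalized reads in Luciferase B, against 408, 385 and 367 in Luciferase A. Under the 6T sgRNA it had 435, 423 and 456 in condition B, against 451, 364 and 505 in condition A. The conditions overlapped under both sgRNAs. The log2 fold change in the authors' deposited table was 0.15 under the Luciferase sgRNA (p = 0.432) and -0.01 under the 6T sgRNA (p = 1).

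IRF9, the DNA-binding subunit of ISGF3, lies at chr14:24161053-24166565 on the plus strand. It had 84.3, 72.1 and 78.0 normalized reads in Luciferase B, against 147, 133 and 120 in Luciferase A. Under the 6T sgRNA it had 45.5, 67.0 and 71.6 in condition B, against 106, 72.4 and 80.8 in condition A. Under both sgRNAs the condition B libraries lay below the condition A libraries without overlap, with a wide gap under the Luciferase sgRNA and a gap of less than 1 normalized read under the 6T sgRNA. In all, 138 reads lay behind the 6T B values and 193 behind the 6T A values, against 655 in Luciferase B and 274 in Luciferase A. A lower count in bulk RNA can come from fewer cells with the transcript or from less transcript per cell, and these cannot be told apart.

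For IRF9 under the Luciferase sgRNA, the authors' deposited table held a log2 fold change of -0.77 (p = 0.00343). This p had rank 10 among 20194 genes, and its adjusted value was 1. Under the 6T sgRNA the authors' deposited table gave -0.49 (p = 0.0693, adjusted p = 1). limma on the recovered libraries gave a log2 difference of -0.76 with a 95% interval from -1.09 to -0.43 under the Luciferase sgRNA (adjusted p = 0.457). It gave -0.50 with an interval from -1.02 to 0.03 under the 6T sgRNA (adjusted p = 1.00). Without 6T B1, the lowest library, the 6T value was -0.30, and without 6T A1, the highest, it was -0.34. IRF9 shares 48.4% of its exon bases with a read-through gene on the same strand. That gene is not listed by its name among the genes of the deposited tables. Whether the sharing affected the counts of IRF9 was not tested.

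IRF1, at chr5:132481609-132490798 on the minus strand, had 127, 132 and 125 normalized reads in Luciferase B, against 177, 131 and 118 in Luciferase A. Under the 6T sgRNA it had 103, 140 and 152 in condition B, against 138, 124 and 156 in condition A. The conditions overlapped under both sgRNAs, and 22.0% of its exon bases overlap a gene on the opposite strand. The authors' deposited table gave log2 fold changes of -0.15 under the Luciferase sgRNA (p = 0.648) and -0.08 under the 6T sgRNA (p = 0.775).

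SOCS1, whose protein blocks the catalytic site of JAK kinases, lies at chr16:11254405-11256200 on the minus strand and was the least abundant of the 9 genes. It had 9.14, 11.8 and 13.3 normalized reads in Luciferase B, against 14.9, 7.73 and 8.49 in Luciferase A. Under the 6T sgRNA it had 22.8, 4.19 and 15.5 in condition B, against 10.8, 12.5 and 12.2 in condition A. The spread within 6T B, from 3 to 15 reads, was wider than any difference between groups. The limma interval of the log2 difference under the 6T sgRNA ran from -1.20 to 1.17, so a 2-fold difference in either direction was not detectable at this depth.

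USP18, a protease that removes ISG15 from proteins and also blocks the receptor, lies at chr22:18149899-18177397 on the plus strand. It had 266, 258 and 250 normalized reads in Luciferase B, against 284, 275 and 269 in Luciferase A. Under the 6T sgRNA it had 194, 264 and 260 in condition B, against 312, 226 and 244 in condition A. All Luciferase B libraries lay below all Luciferase A libraries, by a narrow margin, and the 6T conditions overlapped. The authors' deposited table gave log2 fold changes of -0.10 under the Luciferase sgRNA (p = 0.638) and -0.12 under the 6T sgRNA (p = 0.632). USP18 has a near-identical partial copy in the genome, so its counts are uncertain where reads could be split between them.

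None of the 9 genes passed an adjusted p under 0.05 in condition B against A in the authors' deposited DESeq tests, where 0 of 20194 genes were called under the Luciferase sgRNA (0%) and 8 of 19246 under the 6T sgRNA (0.0416%). The adjusted p of each member was 1 in both of the authors' deposited tables. At an unadjusted p under 0.05, IRF9 was the 1 member called under the Luciferase sgRNA, against 1.22% of all genes, and 0 members were called under the 6T sgRNA, against 0.868% of all genes. limma called 0 members and 0 genes at an adjusted p under 0.05 under either sgRNA. At an unadjusted p under 0.05 it called 9.73% of 13581 genes under the Luciferase sgRNA and 2.35% of 14046 genes under the 6T sgRNA, and of the members again only IRF9 under the Luciferase sgRNA. Among 13572 genes with all libraries recovered, condition B lay below condition A without overlap for 9.28% under the Luciferase sgRNA, where IRF9 and USP18 did, and for 3.82% under the 6T sgRNA, where IRF9 did. It lay above without overlap for 6.58% under the Luciferase sgRNA, where IFNAR2 and JAK1 did. Of these genes 36, or 0.265%, lay below without overlap under both sgRNAs, IRF9 among them. Whether that is more or fewer than the share under each sgRNA alone would give was not tested. IRF9 was chosen for its place in the pathway, but with earlier results of these data known, and this overlap was looked at after its values were seen.

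**Figure D2:**
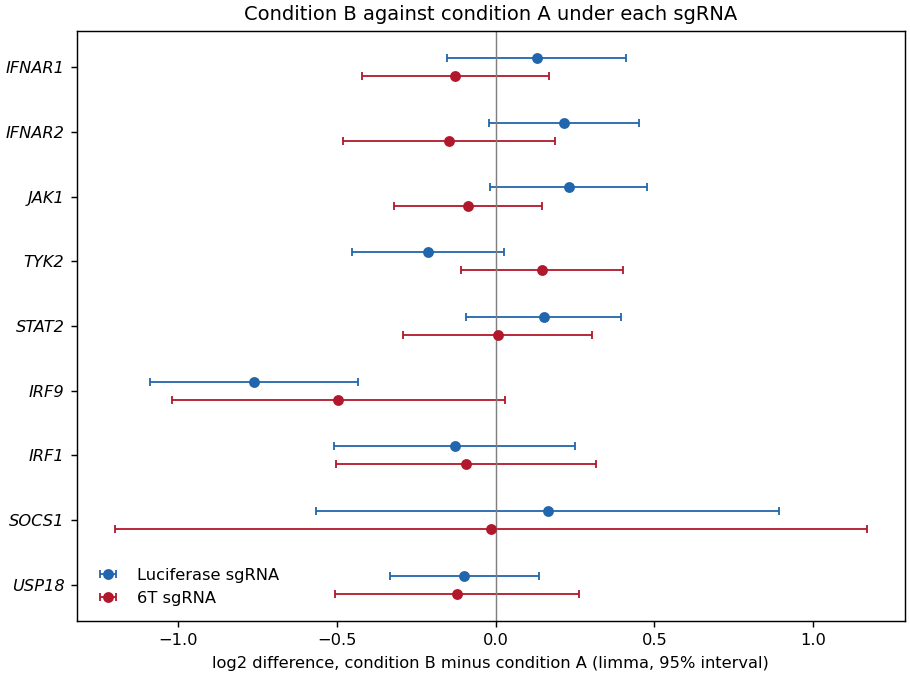
The log2 difference of condition B minus condition A (horizontal axis) for the 9 genes, from limma on the recovered libraries, with Luciferase sgRNA above 6T sgRNA in each pair. Points are estimates and bars 95% intervals from 3 libraries per condition. The IRF9 interval runs from -1.09 to -0.43 under the Luciferase sgRNA, and every other interval spans 0.

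The direction of several small differences moved with the GC content of the transcript. Across all genes tested, the log2 fold change in the authors' deposited tables had a Spearman correlation with GC content of -0.69 under the Luciferase sgRNA and 0.41 under the 6T sgRNA. GC content was 42.3% for IFNAR1, 46.2% for JAK1, 47.0% for IFNAR2 and 61.3% for TYK2. After a smooth trend on GC content across all genes was subtracted, TYK2 was at -0.07 under the Luciferase sgRNA and 0.09 under the 6T sgRNA. JAK1 was then at 0.16 and IFNAR2 at 0.18 under the Luciferase sgRNA, and IFNAR1 was at -0.05 there, opposite in sign to its value before. STAT2 (50.2% GC) and SOCS1 (69.1% GC) were opposite in sign to the trend under the Luciferase sgRNA. STAT2 was at 0.15 before and 0.19 after the subtraction, and SOCS1 at 0.14 before and 0.28 after. IRF9, with 55.4% GC, lay far from the trend and was at -0.66 under the Luciferase sgRNA and -0.51 under the 6T sgRNA after it was subtracted. Whether GC content accounts for the differences of the kinases and receptors was not tested.

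**Figure D3:**
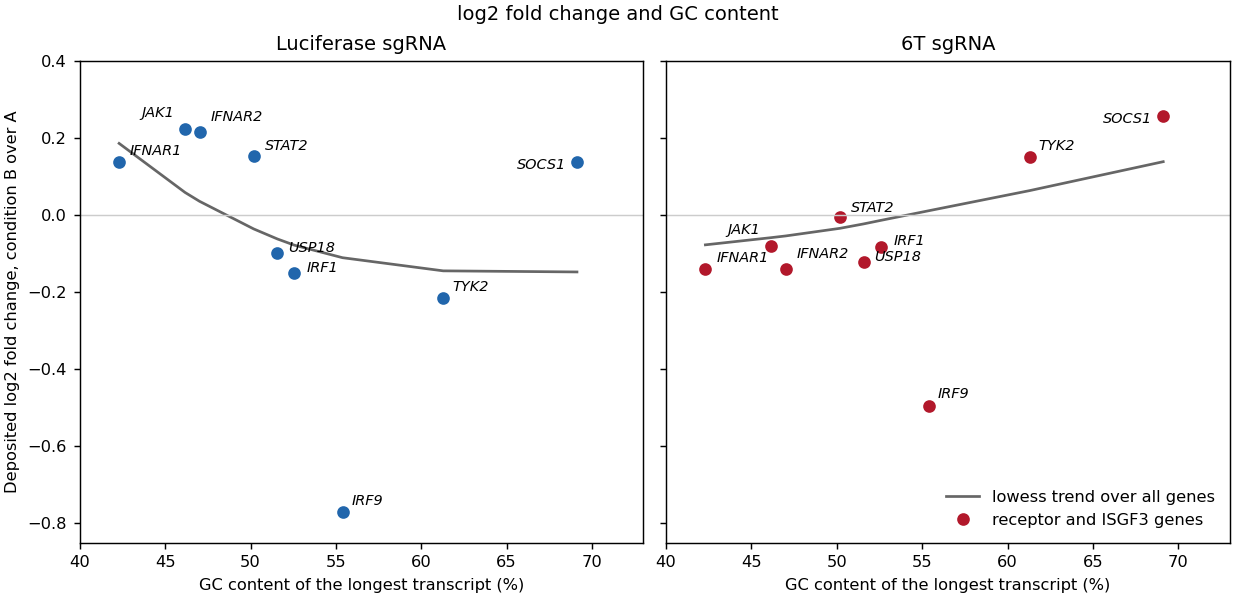
GC content of the longest transcript in percent (horizontal axis) against the log2 fold change of condition B over A in the authors' deposited tables (vertical axis), for the Luciferase sgRNA on the left and the 6T sgRNA on the right. Points are the 9 genes and the line is the trend over all genes tested. The trend slopes in opposite directions in the 2 panels, and IRF9 lies far below it in both, at -0.77 and -0.49.

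The difference between the sgRNAs in condition B against A was tested in 1 limma fit over the 12 libraries, as the Luciferase difference minus the 6T difference. It was 0.36 for IFNAR2 (95% interval from -0.03 to 0.75), 0.32 for JAK1 (from -0.01 to 0.64) and -0.36 for TYK2 (from -0.70 to -0.01). TYK2 was the 1 member with an unadjusted p under 0.05, against 9.38% of 13572 genes, and its limma adjusted p was 0.487. After adjustment 0 genes (0%) were called. With the GC trend subtracted, the value of TYK2 was -0.16. For IRF9 the difference between sgRNAs was -0.27, with an interval from -0.86 to 0.33 (limma adjusted p = 0.650). That value was -0.47 without 6T B1 and -0.42 without 6T A1, against -0.14 without 6T B3 and -0.15 without 6T A2.

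Between the sgRNAs, the differences of IRF9, IFNAR2 and JAK1 were larger in condition A than in condition B, and none passed an adjusted p under 0.05. If A and B held opposite conditions in the 2 tables, these comparisons would cross cells with and without Cas9. In condition A, IRF9 averaged 133 ± 13.5 normalized reads under the Luciferase sgRNA and 86.5 ± 17.6 under the 6T sgRNA (SD, n = 3 each), a log2 difference of 0.63 with an interval from 0.21 to 1.05 (limma adjusted p = 0.0757). IFNAR2 averaged 254 ± 11.6 under the Luciferase sgRNA and 338 ± 36.6 under the 6T sgRNA, a log2 difference of -0.41 (limma adjusted p = 0.0774). JAK1 averaged 815 ± 101 under the Luciferase sgRNA and 1022 ± 33.2 under the 6T sgRNA, a log2 difference of -0.33 (limma adjusted p = 0.0809).

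For these 3 genes and for TYK2, the Luciferase and 6T libraries of condition A did not overlap, as for 32.6% of 13572 genes. limma called 8 genes, or 0.0589%, and no member. Without Luciferase A2 that count was 938, and still no member was called. An unadjusted p under 0.05 was found for 3 of the 9 members and for 31.2% of all genes, so the share among the members was near the background. The log2 difference in condition A had a Spearman correlation of 0.73 with GC content across genes, and with the trend subtracted IRF9 was at 0.49, JAK1 at -0.21, IFNAR2 at -0.32 and TYK2 at 0.02. The comparison shares its Luciferase A libraries with the Luciferase difference of B against A, so the 2 results do not stand apart from each other.

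In condition B, IRF9 averaged 78.1 ± 6.08 normalized reads under the Luciferase sgRNA and 61.4 ± 14.0 under the 6T sgRNA (SD, n = 3 each). All Luciferase libraries lay above all 6T libraries, as for 6.72% of genes, by less than 1 normalized read, and the limma log2 difference was 0.37 with an interval from -0.05 to 0.79 (adjusted p = 0.949). Without 6T B1, the lowest library, it was 0.17. The other 8 members overlapped between the sgRNAs, with log2 differences from -0.12 (TYK2) to 0.12 (USP18). limma called 0 genes (0%) after adjustment and 5.32% of genes, with 0 members, at an unadjusted p under 0.05.

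The 4 means of IRF9 thus had the order 6T B, Luciferase B, 6T A and Luciferase A from low to high, in which only the middle pair overlapped. The gap between 6T B and Luciferase B ran only from 71.6 to 72.1 normalized reads. Luciferase B lay above 6T B without overlap for 6.72% of 13572 genes, and Luciferase A and 6T A did not overlap for 32.6%. The share of genes with the whole order was not counted. For the other 8 genes, all neighbours in the order of the means overlapped except Luciferase A and Luciferase B, the lowest means of both IFNAR2 and JAK1. Luciferase B lay above Luciferase A without overlap for 6.58% of genes. Averaged over both sgRNAs in 1 fit, a comparison added after the values were seen that assumes the same order of conditions in both tables, IRF9 was at -0.63 with an interval from -0.93 to -0.33 (limma adjusted p = 0.670), and it was the 1 member among the 3.11% of genes with an unadjusted p under 0.05. That fit called 2 of 13572 genes (0.0147%) after adjustment, and the averages of the other 8 members lay between -0.11 and 0.08.

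Over the 4 deposited means, 5 genes were named as those nearest in pattern to IRF9 among 11726 genes with a mean of 50 or more, by root mean square distance of the log2 means centred on each gene's own mean. They were IFI6 at a distance of 0.10, CDKN1A at 0.16, CSF1 at 0.17, the pseudogene PKD1P1 at 0.17 and FAM53A at 0.18, against a median of 0.41 over all genes compared. IFI6 is an interferon-induced mitochondrial protein, CDKN1A the cyclin-dependent kinase inhibitor p21 and CSF1 a macrophage growth factor. IFI6 had deposited means of 146 in Luciferase B against 270 in Luciferase A, and of 139 in 6T B against 169 in 6T A, in the authors' deposited tables. CDKN1A had 1217 in Luciferase B against 1991 in Luciferase A, and 1058 in 6T B against 1096 in 6T A, in the authors' deposited tables. Both were highest in Luciferase A, as IRF9 was, which follows from their selection by these same means. Of the 7 other members with a mean of 50 or more, USP18 was nearest to IRF9, at 0.33, and IFNAR2 farthest, at 0.52, while SOCS1 lay below that mean and was not compared. The distances rest on 4 points with 3 libraries each, and those of PKD1P1 are uncertain because it shares reads with close copies.

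**Figure D4:**
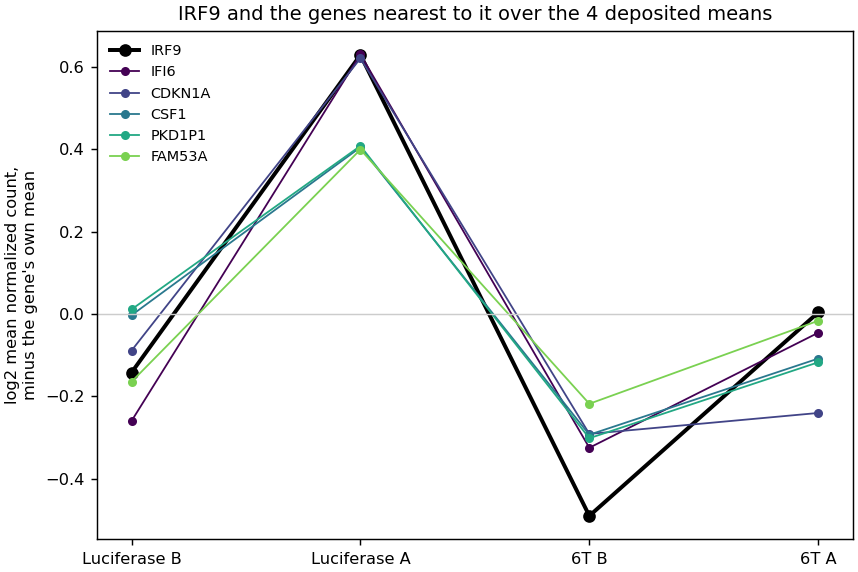
The log2 of the deposited mean normalized count minus the gene's own mean over the 4 groups (vertical axis) for IRF9, in black, and the 5 genes nearest to it, with Luciferase B, Luciferase A, 6T B and 6T A from left to right. All 6 genes are highest in Luciferase A and lowest in 6T B, which follows from the selection of the 5 by these same means.

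The ligands of the receptor were almost without reads. Of 17 type I interferon genes, 0 reached a mean of 10 normalized reads, 10 had 0 reads in all libraries, and the 17 together had 36 reads over the 12 libraries. IFNE, an interferon of epithelia, held 21 of these reads and IFNB1, encoding interferon beta, held 3. Summed over the 17 genes, the mean was 2.02 normalized reads in Luciferase B, 2.54 in Luciferase A, 3.07 in 6T B and 2.77 in 6T A. A count of 0 in a library allows for up to 3 reads, so a ligand expressed below that was not detectable.

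The receptors of the other interferon classes and the other JAK and STAT genes had 0 calls in the authors' deposited tables, of 4 receptor genes and of 6 tested JAK and STAT genes. IFNGR1, a subunit of the interferon gamma receptor, was at 0.37 under the Luciferase sgRNA (p = 0.161) and -0.16 under the 6T sgRNA (p = 0.413) in the authors' deposited tables. JAK2, a kinase of the same receptor, was at 0.45 under the Luciferase sgRNA (p = 0.337) and -0.55 under the 6T sgRNA (p = 0.270) in the authors' deposited tables, with means of 17.5 to 25.9 normalized reads. In the limma comparison of Luciferase against 6T in condition A, IFNGR1 was at -0.73 (adjusted p = 0.0618), nearer the threshold than any member. Of 6 tested genes of the IRF family and its binding proteins, 0 were called under either sgRNA, and IRF7, the amplifier of interferon production, had means of 2.98 to 6.47 normalized reads.

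Of 19 other negative regulators of the pathway, 0 were called under either sgRNA. Under the Luciferase sgRNA 7 were lower in condition B and 12 higher, with a median log2 fold change of 0.08 against -0.01 over all genes tested. Under the 6T sgRNA 16 were lower and 3 higher, with a median of -0.12 against -0.03 over all genes. The share of all genes tested that were lower was 51.0% under the Luciferase sgRNA and 57.8% under the 6T sgRNA. Whether the directions of this list differ from those shares, or follow GC content, was not tested. SOCS5, a cytokine-signalling suppressor, was at 0.54 under the Luciferase sgRNA (p = 0.0281, adjusted p = 1) and -0.21 under the 6T sgRNA (p = 0.266) in the authors' deposited tables. ISG15, the ubiquitin-like protein that stabilizes USP18 in human cells and is also listed among the targets below, was at -1.27 under the Luciferase sgRNA (p = 0.0565) and -0.34 under the 6T sgRNA (p = 0.573) in the authors' deposited tables.

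Among 50 listed ISGF3 target genes, the 30 tested under the Luciferase sgRNA had 24 lower in condition B, a median log2 fold change of -0.23 and 0 calls. The 29 tested under the 6T sgRNA had 21 lower, a median of -0.14 and 4 calls, all lower. Over all genes tested, 51.0% were lower under the Luciferase sgRNA and 57.8% under the 6T sgRNA. The authors' deposited DESeq test called 8 of 19246 genes (0.0416%) under the 6T sgRNA. This list was chosen with earlier results of these data known, so its counts and calls are no independent support for the values of IRF9. OASL, an enhancer of RNA sensing in the cytoplasm, was at -1.59 under the Luciferase sgRNA (adjusted p = 0.164) and fell by 2.24 under the 6T sgRNA (adjusted p = 0.00734) on the log2 scale, in the authors' deposited DESeq tables. IFIT2, an RNA-binding antiviral protein, was at -1.41 under the Luciferase sgRNA (adjusted p = 0.854) and fell by 3.13 under the 6T sgRNA (adjusted p = 4.59e-09) in the authors' deposited DESeq tables. IFIT3 and IFIT1 were the others called under the 6T sgRNA. limma on the recovered libraries called 0 of these genes. The difference between sgRNAs was not called for any target gene in limma, with an adjusted p of 0.487 for IFIT2.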

How the data were processed

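HEK293T cells received 2 µg plasmid DNA and 6 µl polyethylenimine per well, and polyA RNA libraries were made from 1 µg RNA, per the labels' protocols. STAR, HTSeq and DESeq on hg38 were the authors' tools, per the submitters' processing notes, and versions and strand use are not given in the sources used here. The labels do not say that replicates were separate cultures, so p-values reflect only how these samples spread, which may be technical. Per the file headers, the deposited signal values are mean counts over size factors. The deposited ratio is the fold change of condition B over A, and a log2 column of it was deposited beside it. The deposited p-value columns give the authors' raw and adjusted DESeq p. Rows that name no gene held 38.6% to 42.3% of a condition's total and were left out.

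Each deposited condition mean is a sum of whole reads times 3 steps, 1 per library. The steps and the whole reads were found by a lattice search. A solution was found for all genes above 0 in 6T B and Luciferase A, for 99.97% in 6T A and for 97.46% in Luciferase B, where 506 abundant genes holding 33.3% of the signal stayed unresolved. In simulated means 99.99% of the solutions were right. Median-of-ratios factors computed over the 12 libraries lay within 0.285% of the recovered size factors, so the tables share 1 scale.

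limma 3.58.1 in R 4.3.3 was fitted with a mean-variance trend to log2(normalized reads + 1) for genes with a mean of 10 or more, two-sided, with Benjamini-Hochberg adjustment over all genes. Within a table it used that table's libraries, and between tables all 12. The log2 scale with a pseudocount understates differences of low genes. In counts simulated for 13520 genes with known changes in Luciferase B alone, it called 50 of 100 genes changed 1.5-fold and 87 of 100 changed 2-fold for Luciferase against 6T in condition B, and 20 and 76 of 100 for the difference between sgRNAs. With the changes in Luciferase A alone, and 13513 genes, it called 52 of 99 and 89 of 100 for Luciferase against 6T in condition A. Unchanged genes called were 9 for condition B, 7 for the difference between sgRNAs and 15 for condition A. The spread was assumed and no GC trend was simulated, so these rates need not hold for the real libraries. With 3 against 3 libraries an exact permutation test cannot go below p = 0.10, so none is given for single genes. GC trends were lowess curves with a span of 0.3.

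Gene positions, exon lengths and GC content are from GENCODE on GRCh38. The members and lists were chosen with earlier results of these data known, and the promoter motifs were searched after the sequences had been read. Named genes were the 9 members, genes with the smallest p in each list and the 5 nearest in pattern to the member of widest range, and not all chosen are named. Alternatives were other tests, pseudocounts, filters and scalings, each library left out, and, added after the data were seen, GC subtraction and the average over both sgRNAs.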

Additional observations from a re-analysis of the deposited data

How the results depend on the processing

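No paired analysis was possible because the recovered libraries carry no replicate number. No member passed an adjusted p under 0.05 in any limma fit run, and IRF9 and TYK2 kept their direction in all 5 comparisons under every alternative run. Over all members and alternatives other than left-out libraries, 280 values kept their direction and 14 reversed, each within 0.09 of 0, and the cause was not tested. In condition B against A under the 6T sgRNA, STAT2 was at 0.0064 in limma, 0.0090 in voom, 0.023 with scaling to total reads and 0.028 with the GC trend subtracted, and SOCS1 was at -0.015, -0.030 and -0.0014 in limma, voom and with scaling to total reads. With the GC trend subtracted, IFNAR1 was at -0.049 under the Luciferase sgRNA, -0.019 for the difference between sgRNAs and 0.084 for Luciferase against 6T in condition A, and IRF1 was at 0.024 for the difference and -0.076 in condition A. With voom, USP18 was at -0.0021 for the difference and IRF1 at -0.0048 in condition A.

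Leaving out 1 library at a time in limma gave 33 reversed values and 399 kept. Within a table, reversal was counted against the sign of the authors' deposited fold change. Under the 6T sgRNA, limma with all libraries already had the opposite sign for STAT2 and SOCS1. Their reversed values there, 4 and 3 of the 33, had the sign of that full fit. In condition B against A under the 6T sgRNA, the ranges were -0.23 to 0.00086 for IFNAR1, -0.21 to 0.070 for IRF1, -0.47 to 0.63 for SOCS1, -0.12 to 0.11 for STAT2 and -0.22 to 0.022 for USP18. Under the Luciferase sgRNA the range of IRF1 was -0.25 to 0.039. For the difference between sgRNAs the ranges were -0.20 to 0.13 for IRF1, -0.46 to 0.63 for SOCS1 and -0.12 to 0.12 for USP18. For Luciferase against 6T the range of IRF1 was -0.16 to 0.14 in condition A, and in condition B the ranges were -0.056 to 0.14 for IFNAR1, -0.14 to 0.090 for IFNAR2, -0.19 to 0.090 for IRF1, -0.071 to 0.077 for JAK1, -0.69 to 0.41 for SOCS1, -0.093 to 0.023 for STAT2 and -0.024 to 0.20 for USP18. Small values that kept their sign also moved by more than 1.5 times. In condition B against A these were 0.00062 to 0.43 for SOCS1 and 0.087 to 0.20 for STAT2 under the Luciferase sgRNA, and -0.28 to -0.053 for IFNAR2, -0.18 to -0.032 for JAK1 and 0.078 to 0.25 for TYK2 under the 6T sgRNA, among others.

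Of the counts over all genes, the 8 genes called under the 6T sgRNA in the authors' deposited test became 0 in limma and 0 in voom. limma with a library left out also gave 0 to 0, and the authors' test was not rerun. The 8 genes called for Luciferase against 6T in condition A became 2 in voom, 13 with a pseudocount of 5, 13 with a mean of 50 or more and 211 with scaling to total reads. With a library left out they ranged from 0, as without 6T A1, 6T A3 or Luciferase A1, to 938 without Luciferase A2. In condition B the count ranged from 0 to 2, with 2 called without 6T B3. Depth limits SOCS1 most, with 3 to 15 reads per library in 6T B.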
